A study of Homo sapiens with 12 samples.

Results

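The genes described are 43 genes of DNA replication licensing and the replication fork, listed by symbol for their known role in that machinery. They cover the origin recognition complex (ORC1 to ORC6), the helicase loaders CDC6 and CDT1 with the CDT1 inhibitor geminin (GMNN), the helicase core (MCM2 to MCM7), and the factors that fire origins and switch the helicase on (CDC7, DBF4, MCM10, CDC45, GINS1 to GINS4). The rest are the replicative polymerases and primase, the sliding clamp with its loader, the single-strand binding protein RPA, and FEN1 and LIG1, which process and seal Okazaki fragments. Of the 43, 42 were measured among 12171 genes in all. The only probe of PRIM2, the large primase subunit, was detected on 0 of 12 arrays.

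Total RNA of 2 Ewing sarcoma cell lines, TC32 and SKNMC, was hybridised to Illumina BeadChips. The 4 groups, with 3 arrays each, were TC32 given 40 µM NU7441, TC32 given 0.1% DMSO vehicle, SKNMC given 40 µM NU7441 and SKNMC given 0.1% DMSO vehicle, all taken at 48 h. NU7441 inhibits DNA-PK, the kinase that drives end joining of DNA breaks, and the sources used here do not give the DMSO content of the NU7441 samples. The labels do not state whether replicates of a group were grown as separate cultures. The p-values therefore describe only how far these samples spread, and that spread may be technical. All vehicle titles carry a mark "(2)" that the labels do not explain, and whatever it denotes cannot be told apart from the treatment. In RNA from whole cultures, fewer cells in S phase and less RNA per cell cannot be told apart.

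Replication is licensed in G1, when ORC, CDC6 and CDT1 load the ring of MCM2 to MCM7 around DNA as an inactive helicase. The kinases CDC7-DBF4 and CDK then recruit CDC45 and the GINS complex, which turn the ring into a moving helicase. DNA polymerase alpha with primase lays down each primer, the RFC complex loads the PCNA clamp on it, and polymerases epsilon and delta extend the leading and lagging strands. Transcription of many of these genes is switched on by E2F factors as cells enter S phase, so their RNA is widely read as a sign of proliferation.

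Promoter sequence was examined because E2F control is the textbook link between these genes. RefSeq promoters (GRCh38.p14, 250 bases before to 50 bases after each annotated start) were matched by symbol for 37 of the 43 genes, which gave 47 promoters. Exact matches to the E2F words TTTCCCGC, TTTCGCGC, TTTGCCGC and TTTGGCGC were sought on both strands. Such a match lay in 19 of the 47 promoters (40.4%), against 3.31% of the 35116 promoters in the table. Of the 9 genes that fell in at least 1 line, 7 had a promoter in the table (not MCM5 or GINS4), with 9 promoters in all since CDC45 had 3, and a match lay in 3 of these 9 promoters (33.3%), and in 14 of 32 promoters (43.8%) of measured genes that passed in neither line, a difference that was not tested. The CCAAT word, both strands, was in 53.2% of the replication gene promoters against 34.6% of all promoters, and the CHR words TTCGAA and TTTGAA were in 4.26% against 16.4%. A match is a string of letters and not a measured binding site. The promoters set beside these were neither limited to measured genes nor matched for base composition.

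The stretches around the matches are shown for POLA2, POLA1, MCM7 and RFC3, taken as the genes with the lowest fold change in TC32 among those with a match lying wholly before the start. GINS3 and GINS1, also low in TC32, hold a match across or after the start and were left out by that limit, which was added when the matches were searched. Stretches are also shown for LIG1, which rose in SKNMC, and MCM6, which holds the most matches, both chosen after their values were seen. Positions are bases from the annotated start, negative before it. Each is written 5′ to 3′ in the direction of the gene with the E2F matches in capitals, and in MCM6 each run of capitals holds a pair of overlapping matches on opposite strands.
POLA2, chr11:65261869-65261956, plus strand, match at −53 from the start: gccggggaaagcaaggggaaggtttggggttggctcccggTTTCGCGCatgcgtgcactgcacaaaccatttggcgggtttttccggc
POLA1, chrX:24693741-24693828, plus strand, match at −137 from the start: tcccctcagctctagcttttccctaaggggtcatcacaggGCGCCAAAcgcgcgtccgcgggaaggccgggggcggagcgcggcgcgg
RFC3, chr13:33818054-33818141, plus strand, match at −55 from the start: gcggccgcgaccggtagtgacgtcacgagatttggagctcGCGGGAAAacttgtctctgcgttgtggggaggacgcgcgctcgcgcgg
MCM7, chr7:100101398-100101624, minus strand, matches at −187 and −9 from the start: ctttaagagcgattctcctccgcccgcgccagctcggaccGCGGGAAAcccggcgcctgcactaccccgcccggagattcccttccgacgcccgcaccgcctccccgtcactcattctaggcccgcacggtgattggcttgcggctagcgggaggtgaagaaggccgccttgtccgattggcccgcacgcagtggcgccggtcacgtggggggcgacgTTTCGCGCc
MCM6, chr2:135876482-135876635, minus strand, first match at −152 and last match at −86 from the start: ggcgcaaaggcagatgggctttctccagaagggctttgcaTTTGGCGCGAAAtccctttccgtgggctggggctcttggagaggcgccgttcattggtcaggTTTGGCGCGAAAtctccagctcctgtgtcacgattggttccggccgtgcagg
LIG1, chr19:48170411-48170498, minus strand, match at −114 from the start: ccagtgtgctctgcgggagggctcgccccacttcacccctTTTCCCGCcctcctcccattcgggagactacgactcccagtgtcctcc
The matches lay on either strand and at varied distances from the start, as the map of matches shows. Genes printed here include ones that fell (POLA2 in both lines), ones that rose (LIG1 in SKNMC) and ones that passed the test in neither line (MCM6, MCM7).

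**Figure D1:**
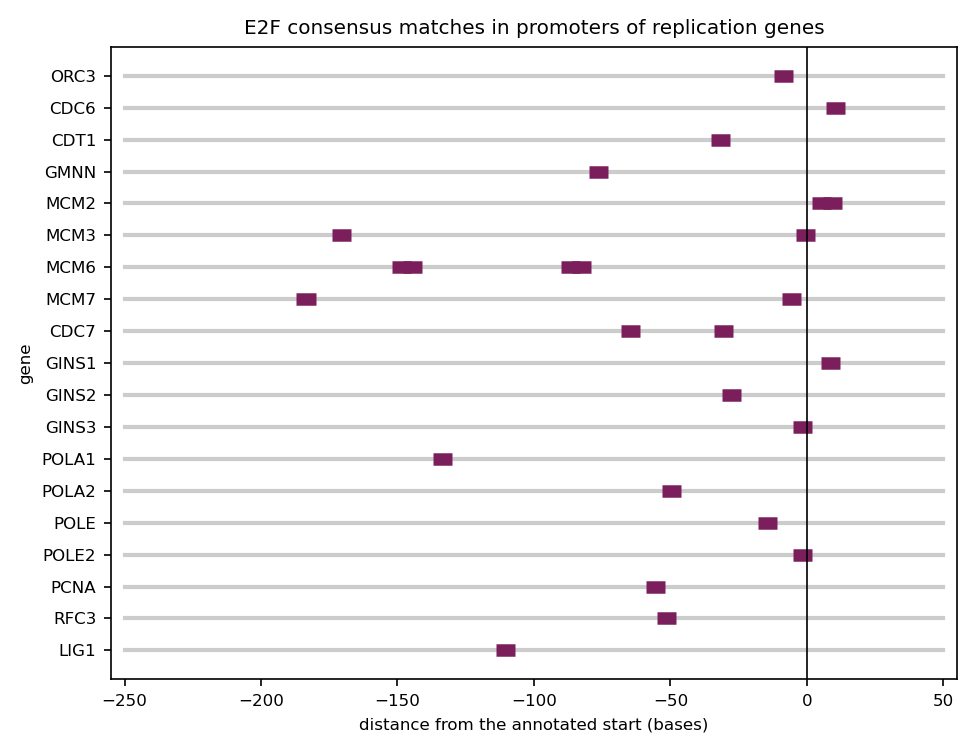
Position of each E2F match (purple) in the 19 promoters that hold one, as distance in bases from the annotated start at 0, for a window of 250 bases before to 50 bases after it. MCM6 holds 4 matches, in 2 overlapping pairs.

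Values below are normalized log2 intensities of the brightest detected probe of each gene, so a level of one gene is not set against that of another. A difference is NU7441 minus vehicle on that log2 scale with its standard error (SE), from limma's moderated test over 3 arrays a group. A gene passed when its p-value, adjusted by Benjamini-Hochberg over all 12171 genes, was under 0.05. In TC32, 1 of 42 replication genes passed as higher and 4 as lower, where 11.9% of all genes tested passed as higher and 13.4% as lower. In SKNMC, 3 passed as higher and 8 as lower, where 15% of all genes passed as higher and 16.9% as lower. The share of replication genes that fell was thus 9.52% in TC32 and 19% in SKNMC, near or below the share of all genes in either line. None fell by 2-fold or more, against 3.91% of all genes in TC32 and 5.64% in SKNMC, although limma gave an unadjusted p under 0.05 with a lower value for 7 replication genes in TC32 (16.7%, against 18.9% of all genes) and 14 in SKNMC (33.3%, against 21.8%).

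Genes that fell in both lines numbered 3 (POLA2, PRIM1 and RFC2), with 1 more past the test in TC32 alone (POLA1) and 5 more in SKNMC alone (MCM5, CDC45, GINS4, RFC3 and RFC4). Genes that passed in neither line numbered 29. Arrays of the groups did not overlap, with NU7441 lower, for 8 genes in TC32 (20.3% of all genes did the same) and for 15 in SKNMC (25% of all genes). The median difference of the 42 genes was 0.01 in TC32 and −0.24 in SKNMC, while the median of all genes was 0.00 in either line.

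**Figure D2:**
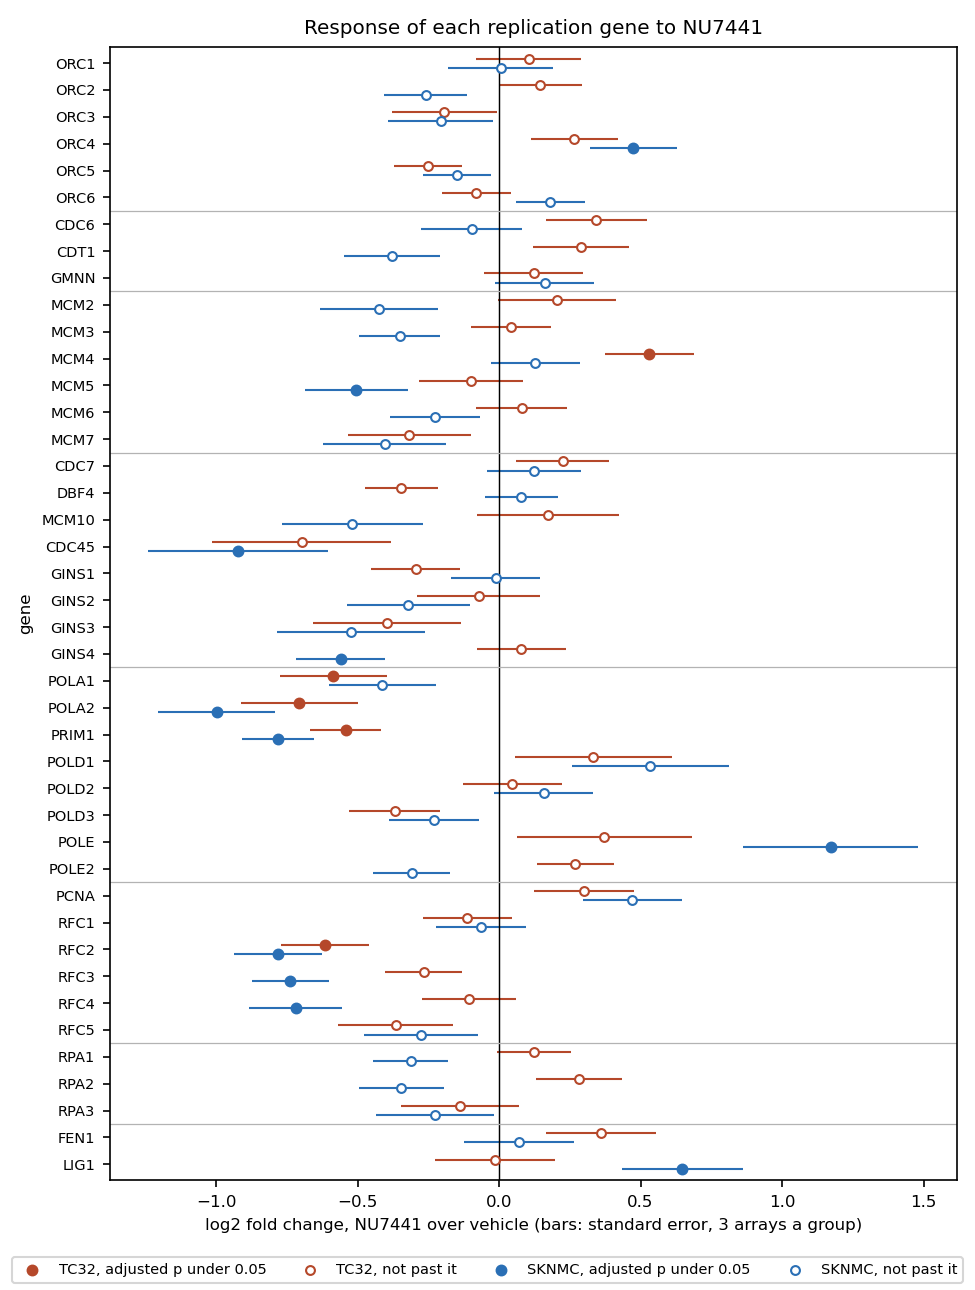
Log2 fold change of each of the 42 measured genes, NU7441 over vehicle, in TC32 (red) and SKNMC (blue), with SE bars from 3 arrays a group. Filled points passed at an adjusted p under 0.05, and PRIM1, POLA2 and RFC2 are filled below 0 in both lines.

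Some arrays stood apart, and several results rest on them. SKNMC NU7441 replicate 1 correlated with replicates 2 and 3 at 0.958 to 0.959 across genes, against 0.993 between those replicates, and TC32 NU7441 replicate 3 correlated with its partners at 0.966 to 0.967, against 0.989 between them. Arrays detected 17944 to 20148 probes, and their mean intensity was 158 to 199. The 28S ribosomal RNA probe (RNA28SN5), which reads RNA without a poly(A) tail, stood at 8.26, 9.33 and 12.69 in TC32 NU7441 and 5.06, 4.86 and 5.13 in TC32 vehicle. In SKNMC it stood at 4.33, 12.33 and 12.42 on the NU7441 arrays and 4.50, 4.43 and 4.17 on the vehicle arrays. The arrays with the highest 28S signal were thus TC32 NU7441 replicate 3 and SKNMC NU7441 replicates 2 and 3, and the part of this signal in the results was not tested. RN7SK and RNU4-2, also RNA without a poly(A) tail, were higher on every NU7441 array than on any vehicle array of the same line. On SKNMC NU7441 arrays RN7SK stood at 8.23, 10.77 and 10.80, against 6.77, 6.61 and 6.73 under vehicle. RNU4-2 stood there at 7.07, 10.09 and 10.07, against 5.37, 5.33 and 5.28 under vehicle. Of the markers, CD99, NKX2-2, STEAP1, PAX7, LIPI and CCND1 of Ewing sarcoma were detected, and PTPRC, CD3E, CDH1, PECAM1 and VWF of blood, epithelial and endothelial cells were detected on 0 arrays. PAX7 was detected on 1 of 3 TC32 NU7441 and 2 of 3 TC32 vehicle arrays, with means of 4.44 and 4.49. Its means in SKNMC were 7.31 under NU7441 and 6.94 under vehicle. LIPI was detected on 1 of 3 SKNMC NU7441 arrays. Of the 6 Ewing sarcoma markers, NKX2-2 rose (0.72 ± 0.21, adjusted p = 0.023) and STEAP1 and LIPI fell in TC32 (by 0.70 and 1.02), and STEAP1 (by 1.05) and LIPI fell in SKNMC. CD68, a macrophage and lysosome marker, rose by 1.02 and 1.46 in TC32 and SKNMC, and the epithelial markers EPCAM and KRT18 fell by 0.99 and 1.18 in SKNMC. The part of these markers in the results was not tested.

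In SKNMC the replication genes followed that split. On NU7441 replicate 1, 17 of 42 genes were below all vehicle arrays and 15 above them, with a median difference of 0.00 from the vehicle mean. On replicates 2 and 3, 26 were below all vehicle arrays and 7 above, with a median of −0.38. Over all genes the shares below were 39.0% on replicate 1 and 34.8% on replicates 2 and 3. The shares above were 36.2% and 33.5% of all genes, against 35.7% and 16.7% of the replication genes. Replicate 1 was above both of its partners for 31 of 42 replication genes (73.8%), against 40.6% of all genes. TC32 NU7441 replicate 3, the TC32 array with the high 28S signal, was likewise above both of its partners for 26 genes (61.9%), against 36.0% of all genes. In TC32 the array above its partners was the one with the most 28S signal, and in SKNMC the one with the least.

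**Figure D3:**
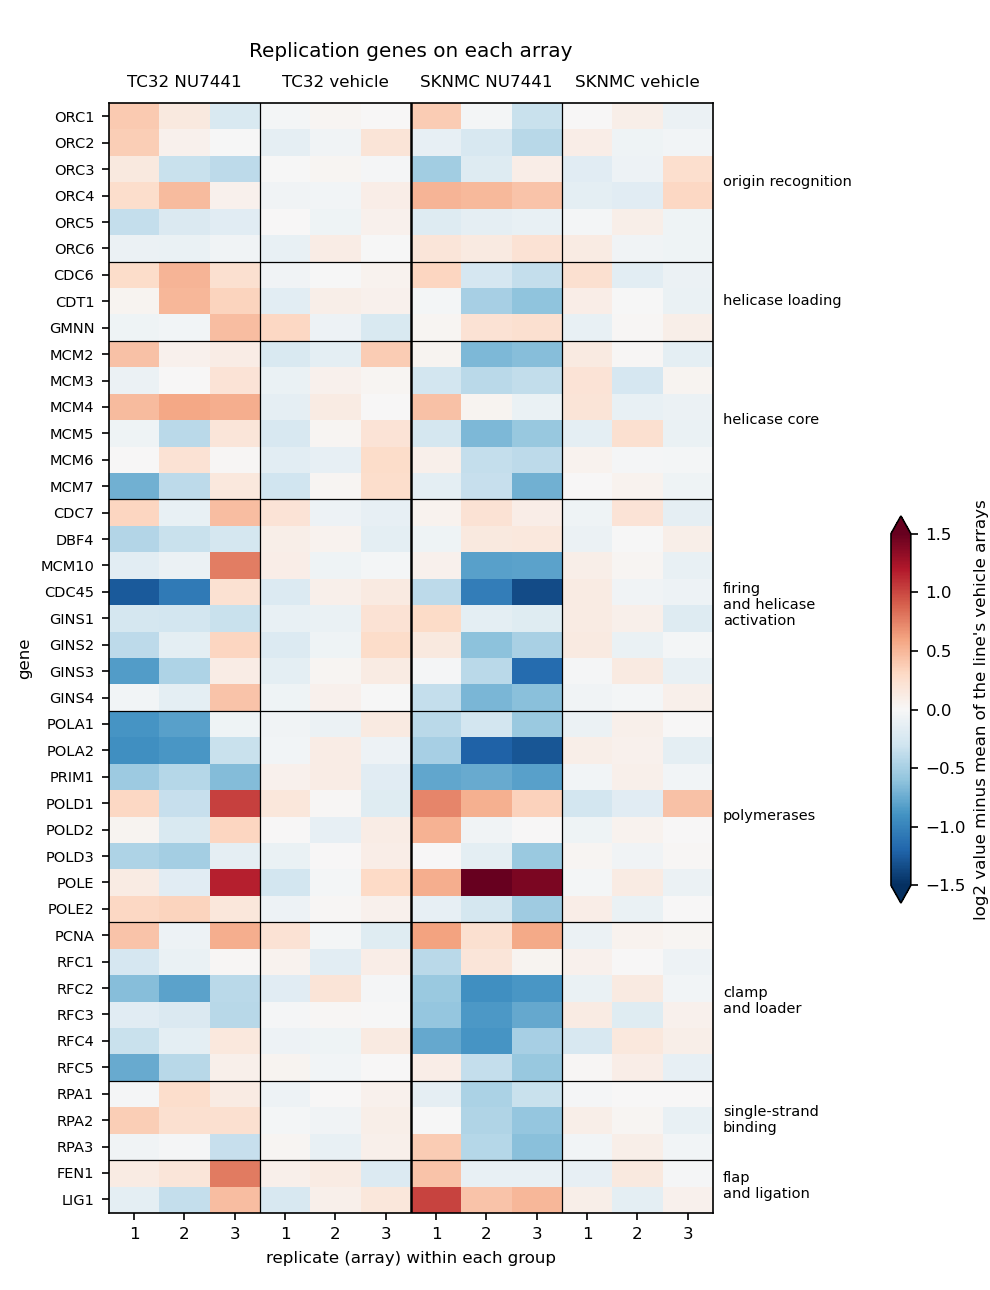
Each of the 42 genes on each of the 12 arrays, as the log2 value minus the mean of the vehicle arrays of the same line, with genes grouped by role (NU7441 to the left of vehicle in each line). Blue is lower and red higher, and colours are capped at 1.5. TC32 NU7441 replicate 3 is redder than its partners for CDC45, MCM10 and POLE, and SKNMC NU7441 replicates 2 and 3 are bluer than replicate 1 for much of the helicase and RPA.

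ORC1 to ORC6 mark origins on chromatin. By limma 0 of the 6 genes passed in TC32, with 0 at an unadjusted p under 0.05 and differences of −0.25 to 0.27. In SKNMC 1 of 6 passed, with differences of −0.26 to 0.47. ORC4, an ATPase-fold subunit, had 5.01, 5.22 and 4.81 on TC32 NU7441 arrays and 4.70, 4.70 and 4.85 on TC32 vehicle arrays, which overlapped. In SKNMC its NU7441 arrays at 5.35, 5.32 and 5.27 were all above the vehicle arrays at 4.69, 4.67 and 5.15, and ORC4 rose by 0.47 ± 0.15 (adjusted p = 0.030). Leaving out SKNMC vehicle replicate 1 or 2, or NU7441 replicate 2 or 3, ended that call, with adjusted p of 0.064 to 0.124. It also ended without between-array normalization (0.38), with median scaling (0.38), without background correction (0.17) and in the authors' deposited log2 table (0.17). ORC2 had 7.74, 7.44 and 7.37 in TC32 NU7441 and 7.23, 7.32 and 7.56 in TC32 vehicle, a difference of 0.15 ± 0.15. In SKNMC the ORC2 NU7441 arrays (7.51, 7.39 and 7.22) were all below the vehicle arrays (7.73, 7.56 and 7.59), at −0.26 ± 0.15 (adjusted p = 0.199). ORC1, the cell cycle-regulated subunit, differed by 0.10 in TC32 and 0.01 in SKNMC. The brightest ORC6 probe gave 0.18 in SKNMC, and a second, dimmer one gave −0.83 (adjusted p = 0.071 over probes).

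Of the 3 helicase loading genes, 0 passed by limma in either line, with 1 (CDT1 in SKNMC) at an unadjusted p under 0.05. CDT1, which escorts the MCM ring to origins, had 6.98, 7.43 and 7.27 in TC32 NU7441 and 6.78, 7.03 and 7.0 in TC32 vehicle, a difference of 0.29 ± 0.17. CDT1 in SKNMC had 6.97, 6.51 and 6.40 under NU7441 and 7.10, 7.0 and 6.90 under vehicle, a difference of −0.38 ± 0.17 (adjusted p = 0.105). Replicate 1 lay inside the range of the vehicle arrays and replicates 2 and 3 lay below it. CDC6, the loader's ATPase, was dim, with 4.96, 5.19 and 4.92 in TC32 NU7441 and 4.63, 4.67 and 4.73 in TC32 vehicle. Those TC32 groups did not overlap, yet the difference of 0.34 ± 0.18 had an adjusted p of 0.183. In SKNMC CDC6 had 5.14, 4.56 and 4.46 under NU7441 and 5.06, 4.66 and 4.73 under vehicle, at −0.10 ± 0.18. GMNN, the inhibitor of CDT1, differed by 0.12 and 0.16 in TC32 and SKNMC.

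Among the 6 helicase core genes, MCM4 rose in TC32 and MCM5 fell in SKNMC. MCM4 had 9.29, 9.40 and 9.36 in TC32 NU7441 and 8.68, 8.95 and 8.83 in TC32 vehicle, with no overlap and a rise of 0.53 ± 0.16 (adjusted p = 0.023) that was not seen without quantile normalization (−0.047) or with arrays scaled to a common median (−0.017). A second, dimmer MCM4 probe gave 0.69 in TC32. Without TC32 vehicle replicate 1 or 3, or NU7441 replicate 2, the MCM4 call ended, with adjusted p of 0.054 to 0.091. In SKNMC MCM4 had 9.81, 9.41 and 9.26 under NU7441 and 9.56, 9.26 and 9.29 under vehicle, a difference of 0.13 ± 0.16.

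MCM5 had 7.59, 7.25 and 7.83 in TC32 NU7441 and 7.41, 7.69 and 7.86 in TC32 vehicle, which overlapped. In SKNMC its NU7441 arrays at 7.78, 7.37 and 7.48 were all below the vehicle arrays at 7.90, 8.29 and 7.95. That fall of 0.50 ± 0.18 on the log2 scale lay just under the threshold (adjusted p = 0.0495). It was lost with no detection filter (adjusted p = 0.079), with the replicate number as a block, and on leaving out any 1 of 8 arrays, with adjusted p of 0.052 to 0.196: TC32 vehicle replicate 1 or 2, TC32 NU7441 replicate 1, any SKNMC vehicle array, or SKNMC NU7441 replicate 2 or 3. MCM2, added after its values were seen for its baseline difference, had 7.84, 7.46 and 7.50 in TC32 NU7441 and 7.16, 7.25 and 7.77 in TC32 vehicle. In SKNMC it had 8.28, 7.56 and 7.59 under NU7441 and 8.37, 8.25 and 8.08 under vehicle, so replicates 2 and 3 lay below the vehicle arrays and replicate 1 among them (−0.42 ± 0.21, adjusted p = 0.140).

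Probes of MCM7 and MCM3 disagreed. The brightest MCM7 probe gave −0.32 in TC32, and its dimmest of 3 gave 0.82 (adjusted p = 0.015 over probes). For MCM3 the brightest probe gave 0.04 in TC32 and the other 0.52 (adjusted p = 0.046 over probes). The remaining core gene, MCM6, differed by 0.08 in TC32 and −0.23 in SKNMC.

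The genes that activate the helicase were led by CDC45, and 2 of 8 fell in SKNMC, while by limma 0 passed in TC32, where 2 (CDC45 and DBF4) were lower at an unadjusted p under 0.05. CDC45 had 7.81, 8.02 and 9.31 in TC32 NU7441 and 8.87, 9.15 and 9.21 in TC32 vehicle. Replicates 1 and 2 were about 1 log2 unit below the vehicle arrays and replicate 3 above all of them, so the difference of −0.70 ± 0.32 did not pass (adjusted p = 0.127). Without replicate 3 CDC45 fell by 1.16 ± 0.22 in TC32 (adjusted p = 0.0021). In SKNMC all CDC45 NU7441 arrays (8.63, 7.99 and 7.69) were below the vehicle arrays (9.15, 8.98 and 8.95), a fall of 0.92 ± 0.32 on the log2 scale (adjusted p = 0.038). GINS4, a subunit of the GINS ring, had 6.54, 6.44 and 7.01 in TC32 NU7441 and 6.52, 6.65 and 6.58 in TC32 vehicle, which overlapped. GINS4 in SKNMC had 7.28, 6.94 and 7.0 under NU7441 and 7.58, 7.60 and 7.71 under vehicle, with no overlap, and fell by 0.56 ± 0.16 (adjusted p = 0.015). The CDC45 call ended without TC32 vehicle replicate 2, any SKNMC vehicle array, or SKNMC NU7441 replicate 2 or 3 (adjusted p of 0.052 to 0.159), and also without background correction (−0.79, adjusted p = 0.063), in the authors' deposited log2 table (−0.77, adjusted p = 0.069) and with no detection filter (adjusted p = 0.0996). The GINS4 call ended without SKNMC vehicle replicate 3 or NU7441 replicate 2 or 3 (0.057 to 0.066).

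MCM10, which helps open the double helix, differed by 0.17 in TC32 and −0.52 ± 0.25 in SKNMC (adjusted p = 0.132). GINS3 had the same value of −0.52 in SKNMC and −0.39 in TC32 without passing. The kinase genes CDC7 and DBF4 stayed within 0.35 of vehicle in both lines. DBF4 and GINS1 were detected on only 6 and 4 of the 12 arrays, so their values lie near background.

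Of the 8 measured polymerase genes, 3 fell in TC32, and 2 fell and 1 rose in SKNMC. All that fell encode DNA polymerase alpha or primase, which make the primers. PRIM1, the catalytic primase subunit, had 8.85, 8.96 and 8.74 in TC32 NU7441 and 9.46, 9.50 and 9.22 in TC32 vehicle. SKNMC arrays of PRIM1 read 8.74, 8.76 and 8.71 under NU7441 and 9.48, 9.60 and 9.48 under vehicle. Every NU7441 array was below every vehicle array of its line, SKNMC replicate 1 included. PRIM1 fell by 0.54 ± 0.13 in TC32 (adjusted p = 0.0066) and by 0.78 ± 0.13 in SKNMC (adjusted p = 0.00051), all on the log2 scale. Both calls were kept under all 24 alternatives, and a second probe gave −0.43 and −0.92. PRIM1 and POLA1 were chosen for these values after they were seen.

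POLA2, the regulatory B subunit of polymerase alpha, had 6.87, 6.91 and 7.45 in TC32 NU7441 and 7.75, 7.89 and 7.71 in TC32 vehicle, a fall of 0.71 ± 0.21 on the log2 scale (adjusted p = 0.022). SKNMC arrays of POLA2 read 7.35, 6.64 and 6.56 under NU7441 and 7.94, 7.91 and 7.70 under vehicle, a fall of 1.00 ± 0.21 (adjusted p = 0.0025) that lay just short of 2-fold before rounding. The groups did not overlap in either line, and the array that stood apart was the least changed in each. POLA1, the catalytic subunit, had 6.59, 6.66 and 7.42 in TC32 NU7441 and 7.43, 7.39 and 7.61 in TC32 vehicle, where replicate 3 lay within the vehicle range. It fell by 0.59 ± 0.19 in TC32 (adjusted p = 0.035). In SKNMC POLA1 had 7.42, 7.55 and 7.27 under NU7441 and 7.74, 7.90 and 7.83 under vehicle, without overlap, yet −0.41 ± 0.19 did not pass (adjusted p = 0.112). The TC32 calls ended without TC32 vehicle replicate 1 or 2 or NU7441 replicate 1 or 2 for POLA2 (adjusted p of 0.055 to 0.082), and for POLA1 also without TC32 vehicle replicate 3 or SKNMC vehicle replicate 3 (0.051 to 0.138). The POLA1 call in TC32 also ended with the mean of its probes (−0.30, adjusted p = 0.102), with TC32 arrays fitted alone (adjusted p = 0.093) and with no detection filter (adjusted p = 0.061), and a second, dimmer probe detected on 3 arrays gave −0.01.

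The polymerase gene that rose was POLE, in SKNMC. POLE, the catalytic subunit that copies the leading strand, had 6.77, 7.78 and 7.64 in SKNMC NU7441 and 6.19, 6.35 and 6.14 in SKNMC vehicle, with no overlap. It rose by 1.17 ± 0.31 (2.25-fold, adjusted p = 0.011), and was the only replication gene past 2-fold in either direction in either line. In TC32 POLE had 6.37, 6.09 and 7.42 under NU7441 and 5.98, 6.22 and 6.56 under vehicle, where only replicate 3 exceeded the vehicle arrays (0.37 ± 0.31). The high POLE arrays in both lines, TC32 replicate 3 and SKNMC replicates 2 and 3, were also those with the highest 28S signal, a link that was not tested. Without SKNMC NU7441 replicate 2 the rise was 0.98 (adjusted p = 0.057). POLE2, the second epsilon subunit, differed by 0.27 in TC32 and −0.31 in SKNMC without passing, and of the accessory subunits, counted here among the fork companions, POLE3 fell by 0.64 ± 0.16 (adjusted p = 0.0083) and POLE4 rose by 0.88 ± 0.13 in SKNMC (adjusted p = 0.00021). The delta subunits POLD1, POLD2 and POLD3 did not pass in either line, with POLD1 at 0.33 and 0.53 and POLD3 at −0.37 and −0.23.

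**Figure D4:**
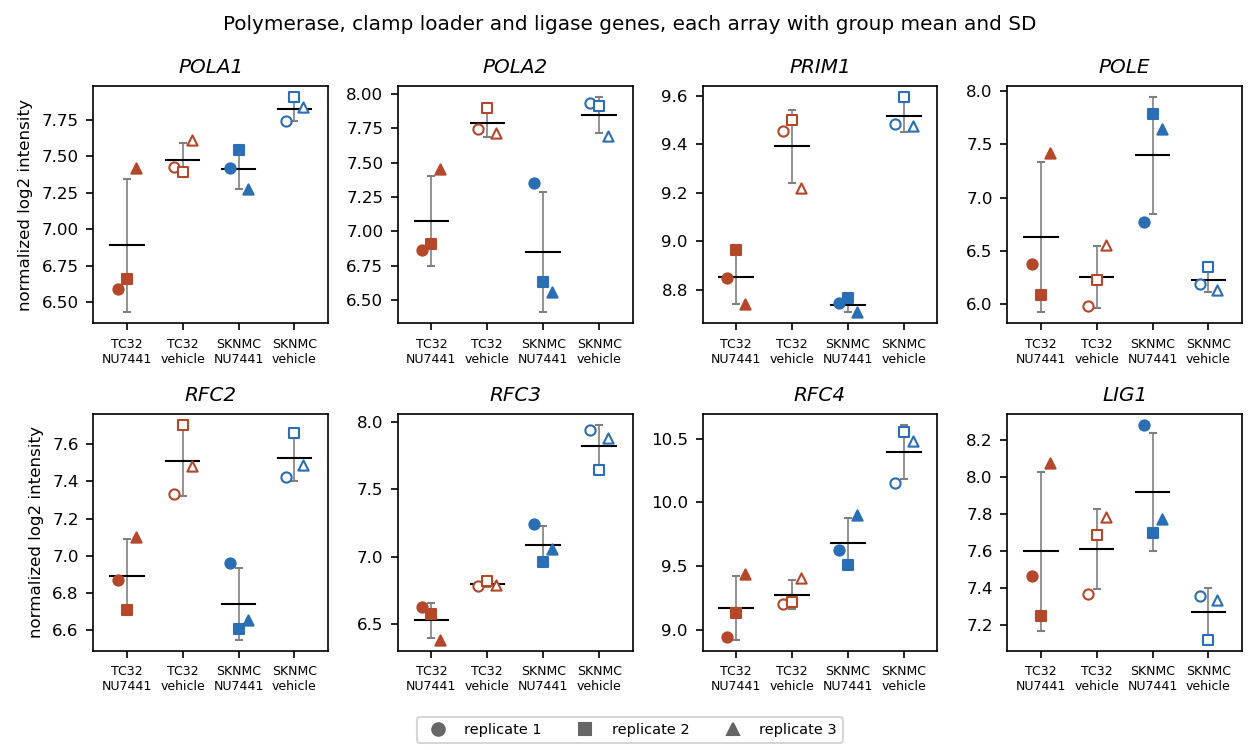
Normalized log2 intensity of 8 fork genes on each array by group (NU7441 left of vehicle, filled against open points), with the group mean as a line and the SD as a bar, n = 3. PRIM1 and RFC2 separate in both lines, RFC3 and RFC4 start higher in SKNMC, and POLE and LIG1 are higher under NU7441 in SKNMC. Axes do not start at 0 and differ between genes.

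The clamp loader fell in part, and the clamp did not. RFC2, a small loader subunit, had 6.87, 6.71 and 7.10 in TC32 NU7441 and 7.33, 7.71 and 7.48 in TC32 vehicle, a fall of 0.61 ± 0.16 on the log2 scale (adjusted p = 0.011). RFC2 in SKNMC had 6.96, 6.61 and 6.65 under NU7441 and 7.42, 7.66 and 7.49 under vehicle, a fall of 0.78 ± 0.16 (adjusted p = 0.0020). The groups did not overlap in either line. A second, dimmer RFC2 probe gave −0.08 and −0.16, and the TC32 call ended with the mean of both probes and without TC32 vehicle replicate 2 (adjusted p = 0.053).

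RFC3 had 6.63, 6.58 and 6.38 in TC32 NU7441 and 6.78, 6.82 and 6.79 in TC32 vehicle, a difference of −0.27 ± 0.14 that did not pass despite no overlap. In SKNMC RFC3 had 7.24, 6.96 and 7.06 under NU7441 and 7.94, 7.64 and 7.88 under vehicle, a fall of 0.74 ± 0.14 (adjusted p = 0.0011). Other RFC3 probes, both dimmer, gave −0.51 (adjusted p = 0.0495 over probes) and 0.12 in TC32. In SKNMC they gave −0.69 (adjusted p = 0.0087 over probes) and −0.24 (adjusted p = 0.329 over probes). RFC4, added after its values were seen, had 8.94, 9.13 and 9.44 in TC32 NU7441 and 9.20, 9.22 and 9.41 in TC32 vehicle, which overlapped (−0.11 ± 0.17). In SKNMC its NU7441 arrays at 9.63, 9.51 and 9.90 were all below the vehicle arrays at 10.15, 10.55 and 10.48, a fall of 0.72 ± 0.17 (adjusted p = 0.0047) that was kept under all 24 alternatives. A second RFC4 probe gave −0.74. RFC1, the large subunit, and RFC5 did not pass. PCNA, the clamp itself, had differences of 0.30 in TC32 and 0.47 ± 0.18 in SKNMC (adjusted p = 0.054), with SKNMC NU7441 arrays all above the vehicle arrays. Other PCNA probes, both dimmer, gave 0.20 and 0.16 in TC32 and −0.04 and 0.10 in SKNMC.

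None of the 3 RPA genes, whose proteins coat single-stranded DNA, passed in limma in either line, though 2 had an unadjusted p under 0.05 in SKNMC. RPA2 had 9.85, 9.71 and 9.72 in TC32 NU7441 and 9.45, 9.42 and 9.56 in TC32 vehicle, all NU7441 arrays above (0.28 ± 0.15, adjusted p = 0.196). RPA2 in SKNMC had 9.53, 9.09 and 8.96 under NU7441 and 9.63, 9.56 and 9.43 under vehicle (−0.35 ± 0.15, adjusted p = 0.097). RPA1 had 8.93, 9.21 and 9.07 in TC32 NU7441 and 8.88, 8.95 and 9.01 in TC32 vehicle, which overlapped. RPA1 in SKNMC had 8.47, 8.13 and 8.27 under NU7441 and 8.59, 8.61 and 8.61 under vehicle, a difference of −0.31 ± 0.13 (adjusted p = 0.086).

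LIG1, the ligase that seals Okazaki fragments, had 7.47, 7.25 and 8.08 in TC32 NU7441 and 7.37, 7.69 and 7.78 in TC32 vehicle, a difference of −0.01 ± 0.21. In SKNMC it had 8.29, 7.70 and 7.77 under NU7441 and 7.36, 7.12 and 7.34 under vehicle, with no overlap, and rose by 0.65 ± 0.21 (adjusted p = 0.032). Leaving out any SKNMC vehicle array or NU7441 replicate 1 ended that call (adjusted p of 0.063 to 0.113), as did no between-array normalization (0.43, adjusted p = 0.161), median scaling (0.43, adjusted p = 0.152) and no detection filter (adjusted p = 0.065). FEN1, the flap nuclease, had 9.01, 9.07 and 9.67 in TC32 NU7441 and 8.97, 9.01 and 8.69 in TC32 vehicle, at 0.36 ± 0.20. In SKNMC FEN1 had 9.58, 9.04 and 9.04 under NU7441 and 9.02, 9.29 and 9.13 under vehicle, at 0.07 ± 0.20, so neither line passed.

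SKNMC NU7441 replicate 1 decided much of the count in that line. Without it, 17 of 42 genes fell, where 20.8% of all genes did, and 2 rose, where 19.4% of all genes did. The additions were CDT1, MCM2, MCM10, GINS2, GINS3, POLE2, RPA1, RPA2 and RPA3. With replicate 1 as the only NU7441 array of SKNMC, assumed to vary like the other groups, 2 genes fell (PRIM1 by 0.77 and RFC4 by 0.77), where 6.24% of all genes did, and LIG1 rose by 1.01. PRIM1 and RFC4 thus fell both without replicate 1 and on replicate 1 alone. The SKNMC count that fell was 5 without NU7441 replicate 2 or 3 or vehicle replicate 3, and the count that rose was 1 without vehicle replicate 1 or 2. In TC32 the count of genes that fell was 7 without NU7441 replicate 3, 2 without NU7441 replicate 1 or 2 or vehicle replicate 1, and 1 without vehicle replicate 2, against 4 with all arrays. The 3 additions without NU7441 replicate 3 were CDC45, POLD3 and RFC5, where 12.9% of all genes fell. Leaving out that array also narrowed the shared spread, and POLA1 fell and PCNA rose in SKNMC (adjusted p = 0.018 and 0.035).

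**Figure D5:**
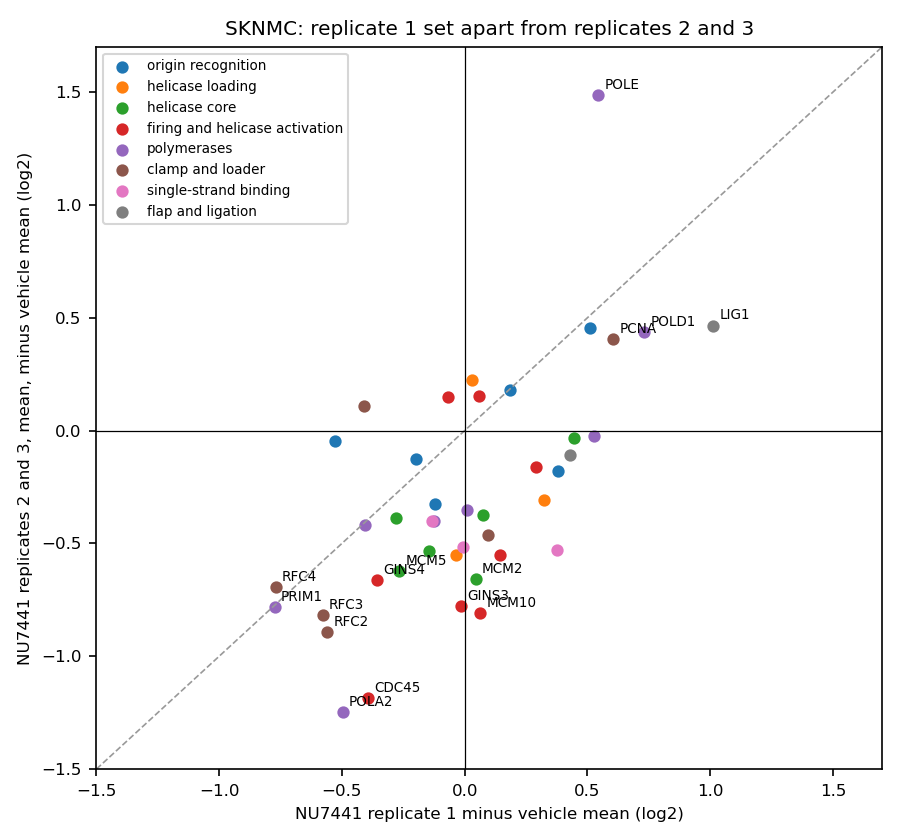
Log2 difference from the vehicle mean for each of the 42 genes in SKNMC, NU7441 replicate 1 on the horizontal axis and the mean of replicates 2 and 3 on the vertical axis, coloured by role, with the line of equality dashed. PRIM1 and RFC4 lie near that line, while MCM2, MCM10 and GINS3 lie near 0 on replicate 1 and below −0.5 on the others.

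Scaling set the size of the TC32 shift. Without normalization between arrays the median of all genes was −0.25 in TC32 and −0.10 in SKNMC, and the replication genes lay 0.17 below that median in TC32 and 0.27 below it in SKNMC. Under that scaling 17 replication genes fell and 0 rose in TC32, where 30.5% of all genes fell and 3.54% rose, against 4 and 1 with quantile normalization. In SKNMC 9 fell and 1 rose, where 19.4% of all genes fell and 9.09% rose, against 8 and 3 with quantile normalization. With arrays scaled to a common median, 16 fell and 0 rose in TC32, where 29.1% of all genes fell and 4.07% rose. Under the same scaling 11 fell and 1 rose in SKNMC, where 19.8% fell and 9.37% rose. PRIM1, POLA1, POLA2 and RFC2 were among those that fell in TC32 without between-array normalization, joined by CDC45 (−1.28), MCM7 and 4 further RFC genes.

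The response was compared between lines as the TC32 change minus the SKNMC change. By limma 0 of 42 genes passed as higher and 0 as lower, where 1.72% of all genes passed as higher and 0.838% as lower. At an unadjusted p under 0.05, 7 were higher (CDT1, GINS4, POLE2, RFC3, RFC4, RPA1 and RPA2) and 2 lower (DBF4 and LIG1), where 9.47% of all genes were higher and 7.96% lower. The differences for the 6 helicase core genes were all above 0, from 0.09 to 0.63, and the 3 RPA genes ran from 0.09 to 0.63 as well. Without SKNMC NU7441 replicate 1, 6 genes passed as higher (CDT1, MCM2, MCM10, GINS4, POLE2 and RPA2, from 0.67 to 0.98), where 7.54% of all genes did. Without TC32 NU7441 replicate 3, 1 passed as lower (LIG1 at −0.90, adjusted p = 0.0496), where 2.82% of all genes did. With arrays weighted by their distance from their group, 12 passed as higher and 3 as lower, where 13.3% and 12% of all genes did. Over the 42 genes the 95% intervals of the difference lay inside 2-fold either way for 32, and for the rest a 2-fold difference lay within the interval.

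Before treatment the lines differed in a few of these genes. In vehicle arrays, TC32 was lower than SKNMC for 6 of 42 genes and higher for 0, where 9.08% of all genes were lower and 5.44% higher, and 1 replication gene was higher at an unadjusted p under 0.05. Clamp loader genes made up 3 of the 6, with RFC4 at −1.12 ± 0.17 (adjusted p = 0.00032), RFC3 at −1.03 ± 0.14 (adjusted p = 0.00012) and RFC1 at −0.58 ± 0.16 (adjusted p = 0.024). The dimmer RFC3 probes gave −0.60 (adjusted p = 0.038 over probes) and −0.39 (adjusted p = 0.173 over probes). GINS4 was at −1.05 ± 0.16 (adjusted p = 0.00037), MCM2 at −0.84 ± 0.21 (adjusted p = 0.015) and MCM4 at −0.55 ± 0.16 (adjusted p = 0.030). By limma over probes, the dimmer probes of MCM4 and RFC1 gave −0.38 and −0.36 (adjusted p = 0.149 and 0.215). The dimmer RFC4 probe gave −0.99 (adjusted p = 0.00046 over probes). MCM3 did not pass on its brightest probe, and its dimmer one gave −0.64 (adjusted p = 0.026 over probes). RFC3, RFC4 and GINS4, the 3 past 2-fold, kept the call under all 23 alternatives. On its brightest probe, each of these also fell in SKNMC under NU7441 and did not pass in TC32. Since the 2 comparisons share the vehicle arrays, their values are only set side by side. The count was 3 without TC32 vehicle replicate 1 or SKNMC vehicle replicate 1, where 5.94% and 6.29% of all genes were lower. The MCM2 call ended without vehicle replicate 1 or 2 of either line (adjusted p of 0.054 to 0.081). The MCM4 call ended without TC32 vehicle replicate 1 or 3 or any SKNMC vehicle array (0.057 to 0.142), and the RFC1 call without TC32 vehicle replicate 1 or 2 or any SKNMC vehicle array (0.057 to 0.109).

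Genes around the fork were counted from lists of their own, to be read against the same shares of all genes, 11.9% higher and 13.4% lower in TC32 and 15% higher and 16.9% lower in SKNMC. Of 12 measured genes of S phase control, 1 rose and 1 fell in TC32, and by limma 4 fell and 0 rose in SKNMC, with 0 higher at an unadjusted p under 0.05. Cyclin A2 (CCNA2), which drives S phase, fell by 1.48 ± 0.22 in TC32 (adjusted p = 0.00030) and by 0.72 ± 0.22 in SKNMC (adjusted p = 0.023). E2F2, an activating E2F, fell by 1.31 ± 0.25 in SKNMC (adjusted p = 0.0013), while E2F3 rose by 0.52 in TC32. Of 8 genes of nucleotide supply, 1 fell in each line, thymidylate synthase (TYMS) by 0.77 in TC32 and dUTPase (DUT) by 1.25 in SKNMC, and by limma 0 rose, with 0 higher at an unadjusted p under 0.05. RRM2, the small subunit of ribonucleotide reductase, had the largest change of that list in TC32, at −1.14 ± 0.40 (adjusted p = 0.0501).

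Of 21 fork companions and chromatin assembly genes, 1 rose and 0 fell in TC32 in limma, with 2 lower at an unadjusted p under 0.05, and 4 rose and 3 fell in SKNMC. DONSON, which helps assemble the helicase, rose in both lines, by 0.58 ± 0.14 in TC32 (adjusted p = 0.0083) and 0.51 ± 0.14 in SKNMC (adjusted p = 0.014). RECQL4, a helicase with a role in origin firing, rose by 1.08 ± 0.36 in SKNMC (adjusted p = 0.033) and was at 0.84 ± 0.36 in TC32 (adjusted p = 0.105). In TC32 its NU7441 arrays stood at 6.34, 5.92 and 7.98, against 5.90, 5.90 and 5.92 under vehicle. Replicate 2 thus lay within the vehicle range, and replicate 3 was the highest. CHTF18, part of an alternative clamp loader, had the largest SKNMC value at 1.13 ± 0.48 without passing. The target of the inhibitor, PRKDC, which encodes the catalytic subunit of DNA-PK and neighbours MCM4 in the genome, was at −0.32 ± 0.14 in TC32 (adjusted p = 0.116) and −0.14 ± 0.14 in SKNMC (adjusted p = 0.493).

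The precision of 3 arrays a group limits what can be said of the 29 genes that passed in neither line. The median SE of a replication gene's difference was 0.17. Among genes that did not pass, the 95% interval lay inside 2-fold either way for 35 of 37 in TC32 and 28 of 31 in SKNMC. The median SD of the replication genes was 0.24 in TC32 NU7441 and 0.13 in TC32 vehicle, and 0.27 in SKNMC NU7441 and 0.11 in SKNMC vehicle. The spread was thus larger under NU7441 in both lines with the same number of arrays, and the cause was not tested. The fit used a shared spread for all groups, so the SE does not show this difference.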

How the data were processed

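The authors deposited a non-normalized bead intensity per probe and array, with a detection p-value for each, per the file headers, and a log2 table of their own, with GenomeStudio, R 3.0.2 and lumi listed as tools in the submitters' processing notes. Intensities were processed with neqc of limma 3.58.1 in R 4.3.3 (normexp background from detection p-values, offset 16, quantile, log2). Probes with detection p under 0.05 on at least 3 of 12 arrays were kept (21753 of 47319), symbols were updated through Entrez numbers, and the brightest probe stood for each gene. Quantile normalization hides a shift of most transcripts. The functions lmFit and eBayes fitted 4 group means with a shared spread, and p-values (two-sided) were adjusted over 12171 genes. The fit was checked on simulated data with known changes in TC32, for calls recovered, estimates and false calls. That simulation gave each gene the same spread in all groups, and intervals were not checked.

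The genes and the companion lists were chosen with earlier results of these data known. Values on every array are given for the 2 genes of each role with the largest absolute fold change in either line. Companion lists are given by counts and their largest member in each line. The companions E2F3, TYMS, DONSON, POLE3 and POLE4 were named outside that rule, for their values. The correlation computed for same-numbered replicates of each line was −0.06 to 0.06. With 3 arrays a group it cannot settle whether numbers pair samples. Alternatives covered normalization, background, the deposited log2 table, detection filters, probe choice, the replicate block, array weights and each array left out.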

Additional observations from a re-analysis of the deposited data

Results flagged for a closer look

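POLE4, an accessory subunit of polymerase epsilon among the fork companions, responded differently in the 2 lines (TC32 change minus SKNMC change −0.99 ± 0.18, adjusted p = 0.011 by limma). It had 9.36, 9.19 and 9.42 in TC32 NU7441 and 9.43, 9.52 and 9.34 in TC32 vehicle, a difference of −0.11. In SKNMC it had 10.04, 10.14 and 10.09 under NU7441 and 9.23, 9.32 and 9.06 under vehicle, and rose by 0.88 ± 0.13 (adjusted p = 0.00021). All SKNMC NU7441 arrays, replicate 1 included, were above the vehicle arrays, while the TC32 groups overlapped. Groups of 3 arrays were not tested for single arrays far from the others.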

How the results depend on the processing

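The count of replication genes that fell in TC32 (4) was 17 without between-array normalization (30.5% of all genes) and 16 with median scaling (29.1%). It was 8 with array weights (16.4% of all genes) and 0 when a fold of 2 was also asked (3.91%). On leaving out each array it was 1 to 7 (9.77% to 16.2% of all genes). The count that rose in TC32 (1) was 0 without between-array normalization (3.54% of all genes), with median scaling (4.07%) and with a fold of 2 (312 of 12171 genes). On leaving out each array it was 0 to 1 (8.38% to 14.4% of all genes). MCM4 in TC32 reversed, to −0.047 with no normalization between arrays and −0.017 under median scaling. In SKNMC the count that fell (8) was 24 with array weights (27.1% of all genes, against 16.9%), 2 with replicates 2 and 3 of NU7441 left out, 0 with a fold of 2 and 5 to 17 on leaving out each array, and the count that rose (3) was 1 without between-array normalization, 1 with median scaling, 1 without those 2 replicates, 5 with array weights, 1 with a fold of 2 and 1 to 4 on leaving out each array. The difference between lines (0 and 0) was 12 higher and 3 lower with array weights (13.3% and 12% of all genes). On leaving out each array it was 0 to 6 higher (0.6% to 7.54% of all genes) and 0 to 1 lower (0.238% to 5.49%). Under vehicle, the count lower in TC32 (6) was 3 without between-array normalization (6.52% of all genes) and 13 with array weights (19.1%). It was 3 with a fold of 2 (351 of 12171 genes) and 3 to 7 on leaving out each array (5.94% to 11.4% of all genes). The count higher (0) was 1 with no background correction (5.07% of all genes), 1 in the submitters' log2 table (5.32%) and 3 with array weights (16.9%). With the replicate block 4 fell and 1 rose in TC32, where 12.8% of all genes fell and 11.3% rose. In SKNMC 7 fell and 3 rose with that block, where 16.4% of all genes fell and 14.7% rose, and the gene lost was MCM5. The cause of these changes was not tested. Signal near background limits DBF4, GINS1 and CDC6, and the 3 arrays a group and the spread between them limit the rest.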
